A study of Mus musculus with 4 samples.

Results

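Immunoglobulin gene segments encode the antibody heavy chain and the kappa and lambda light chains, and were followed here in mouse T helper 2 (Th2) cells given dopamine. Members were all rows whose gene symbol names a variable or constant segment of the heavy, kappa or lambda locus. Joining segments of the heavy and kappa loci and Jchain were included too, and 69 of the 26207 genes in the table met this rule. They were 8 heavy constant genes, 38 heavy variable segments, 1 kappa constant gene, 15 kappa variable segments, 3 lambda constant genes, 3 lambda variable segments and Jchain. The rule matched 0 joining segments and did not cover those of the lambda locus. Bulk RNA-seq had been made from mouse Th2 cells with spleen as the source, in 2 libraries given PBS (phosphate-buffered saline, the vehicle) and 2 libraries given dopamine at 10 µM. The sources used here do not give genotype, strain, age, duration of treatment or how the Th2 cells were obtained. Nothing in the labels says that the libraries came from separate animals or cultures. A p-value therefore reflects the spread among libraries alone, and that spread may be technical. The main test takes it largely from other genes of similar level. The columns could be matched to a group but not to a replicate, and they are called A and B within PBS and within dopamine.

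In a developing B cell, 1 variable segment is joined by DNA recombination to joining segments (and, in the heavy chain, a diversity segment), and the spliced mRNA links it to a constant region. Ighm and Ighd encode the constant regions of IgM and IgD, the classes carried by naive B cells, and class switching replaces them with an Ighg, Ighe or Igha region. A light chain uses either Igkc or one of the Iglc genes, and in mice kappa light chains are far more common than lambda. T cells rearrange the T cell receptor loci instead and do not make antibody, although unrearranged immunoglobulin constant genes can be transcribed. Values given for the whole gene do not show whether a read came from a rearranged message.

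The table held the authors' normalized counts (reads divided by a size factor for each library), and whole reads could be recovered from them. Depth was 5717408 reads in PBS A, 13241168 in PBS B, 14167357 in dopamine A and 11492182 in dopamine B, so 1 read was worth 1.70, 0.766, 0.771 and 0.971 normalized counts. PBS A was therefore the least precise library for genes with few reads. The T cell genes Cd4 (4271 and 4236 normalized counts in PBS A and PBS B, then 4586 and 4749 in the dopamine libraries, the order used throughout) and Cd3e (345, 414, 440 and 451) were abundant in every library. The B cell genes Ms4a1, Cd79a and Cd79b were above 0 in every library too, and their values are given beside the results below.

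The lambda locus is small enough to be read gene by gene. Its sequences are shown because 2 pairs of its members are nearly identical, so that reads in their shared stretches could not be told apart. How such reads were counted, and what that does to the values, was not tested. Iglc2 and Iglc3 shared 96.5% of aligned coding bases (301 of 312), whereas Iglc1 shared 74.9% with Iglc2 and 75.4% with Iglc3. Iglv1 and Iglv2 shared 96.9% (340 of 351), and Iglv1 shared 55.8% with Iglv3. A 100-base coding stretch of each is printed below from the GENCODE M21 transcripts (build mm10, minus strand of chromosome 16, 5′ to 3′). Capitals mark the positions that differ among the 3 constant genes (29 positions), and then those that differ between the 2 variable segments (4 positions). The stretches lie at chr16:19061962-19062061 (Iglc1), chr16:19198743-19198842 (Iglc2), chr16:19065572-19065671 (Iglc3), chr16:19085222-19085321 (Iglv1) and chr16:19260606-19260705 (Iglv2).
Iglc1: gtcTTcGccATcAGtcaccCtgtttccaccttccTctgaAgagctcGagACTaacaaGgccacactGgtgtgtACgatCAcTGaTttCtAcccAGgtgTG
Iglc2: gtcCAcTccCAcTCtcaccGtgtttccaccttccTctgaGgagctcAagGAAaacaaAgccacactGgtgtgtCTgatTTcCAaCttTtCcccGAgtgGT
Iglc3: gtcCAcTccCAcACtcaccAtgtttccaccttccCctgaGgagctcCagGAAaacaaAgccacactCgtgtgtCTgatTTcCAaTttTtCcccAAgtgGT
Iglv1: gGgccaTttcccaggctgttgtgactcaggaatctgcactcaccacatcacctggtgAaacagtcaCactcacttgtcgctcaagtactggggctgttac
Iglv2: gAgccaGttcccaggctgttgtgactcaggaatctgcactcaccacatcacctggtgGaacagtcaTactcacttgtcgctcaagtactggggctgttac
Of the 50-base words of each transcript, 0% of those of Iglc1 and Iglv3 were also found in another annotated gene, against 7.7% for Iglc2, 22.3% for Iglc3, 22.2% for Iglv1 and 21.1% for Iglv2. The long lower-case runs in Iglv1 and Iglv2 show where short reads would not separate these 2 segments. In the annotation Iglc1, Iglc3 and Iglv1 also overlap a longer transcript, 2010309G21Rik, and Iglc2 overlaps the joining segment Iglj2. The sources used here do not say how reads in overlapping genes were counted.

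Of the 69 members, 13 (18.8%) were higher and 1 (1.4%) was lower with dopamine at an adjusted p of 0.05, by limma on log2(value + 1) with Benjamini-Hochberg adjustment over all genes. Among all 26207 genes 21.3% were called, 14.3% higher and 7.00% lower, so the share of members called higher stood close to the background. Constant genes and variable segments gave different counts. Higher calls were made for 7 of 12 constant genes and for 5 of 56 variable segments. Both dopamine libraries were above both PBS libraries for 28 members (40.6%, against 28.5% of all genes), and both were below for 7 members (against 30.4% of all genes). The log2 fold change was above 0 for 48 members (69.6%, against 45.3% of all genes), with a median of 0.84 against -0.08 over all genes. That median depended on segments with few reads. For the 56 variable segments it was 0.83, but 0.10 for the 16 with a mean of at least 5 normalized counts. It was 0.33 when 5 was added to each value in place of 1, and 1.48 when 0.1 was added. Fewer members were called higher when any 1 library was left out, and the number of calls over all genes fell in each of those fits as well. On recovered reads, edgeR with a filter on low counts tested 14 of the members and called 7 higher and 1 lower. Of the 15329 genes it tested, 18.2% were called higher and 15.8% lower. DESeq2 gave an adjusted p to 6 constant genes, 3 variable segments and Jchain, and called 4 members higher and 0 lower. At an unadjusted p under 0.05 it gave 7 higher and 2 lower among all 69 members. Of the 12997 genes with an adjusted p, it called 19.6% higher and 5.53% lower. The authors' deposited table gave an adjusted p to 10 members and called 4 of them higher, among 19.6% of genes called higher and 5.53% lower.

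Ighm, the IgM constant region (chr12:113418558-113422730, minus strand), was the most abundant member and held 72.4% of all member reads. Its level was 1384 and 1350 normalized counts in the PBS libraries and 2042 and 2059 in the dopamine libraries. The groups did not overlap, and the PBS mean of 1367 ± 24.4 (SD, n = 2) compared with a dopamine mean of 2051 ± 12.3 (SD, n = 2). Ighm rose by a log2 fold change of 0.58 (SE 0.07, limma adjusted p = 2.85e-08). That call held in 14 of 14 alternative analyses, with log2 fold changes from 0.39 after rescaling on abundant genes to 0.60. Set against Trbc2, a T cell receptor beta constant gene, Ighm per kilobase was 0.0659 and 0.0603 of the Trbc2 level in the PBS libraries and 0.0803 and 0.0804 in the dopamine libraries.

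Ighg1, the IgG1 constant region (chr12:113325240-113330523), is the class that interleukin-4, the signature Th2 cytokine, is known to favour in B cells. It stood at 8.49 and 30.6 normalized counts in PBS and at 61.7 and 57.3 with dopamine. Both dopamine libraries were higher than both PBS libraries, but the PBS libraries themselves lay far apart. The log2 fold change was 1.80 (SE 0.34, limma adjusted p = 4.77e-05). It fell to 0.93 without PBS A and rose to 2.67 without PBS B, and the call held in 14 of 14 alternatives.

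Ighg2c, another IgG constant region (chr12:113285325-113288932), had 0 and 2 reads in PBS and 7 and 9 with dopamine. In normalized counts these were 0 and 1.53 against 5.40 and 8.74. The ratio of pooled reads, dopamine over PBS, was 6.51 with a 95% counting interval of 1.53 to 58.4. It was called higher (limma adjusted p = 0.0306), and the call held in 4 of 10 alternatives. Intervals of this kind cover counting error only.

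The other 5 heavy constant genes did not pass the test, and none of them reached 12 normalized counts in any library. Ighd, which is co-expressed with Ighm in naive B cells, was at 11.9, 2.3, 3.86 and 1.94 (limma adjusted p = 0.472). Ighe, the IgE region, was at 5.10, 4.6, 6.94 and 2.91 (0.954), and its groups overlapped. Igha, the IgA region, had 3 and 4 reads in PBS and 1 and 1 with dopamine (0.241), so both dopamine libraries were below both PBS libraries at a depth of single reads. Ighg3 was at 5.10, 2.3, 5.40 and 8.74 (0.392). Ighg2b was at 10.2, 2.3, 3.86 and 0.971 (0.390), with groups that overlapped.

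Igkc, the only kappa constant gene (chr6:70726435-70726966, plus strand), was at 110 and 80.4 normalized counts in PBS and at 234 and 219 with dopamine. The lower dopamine library was well above the higher PBS library. Its mean went from 95.4 ± 21.2 to 227 ± 10.1 (SD, n = 2 each), a log2 fold change of 1.26 (SE 0.16, limma adjusted p = 1.71e-08). Igkc was called higher in 14 of 14 alternatives, at log2 fold changes of 1.03 to 1.48. It overlaps Gm30211 in the annotation. Per kilobase of exon, Ighm was 3.54 and 4.73 times Igkc in the PBS libraries and 2.46 and 2.65 times Igkc in the dopamine libraries.

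The 3 lambda constant genes lie on the minus strand of chromosome 16. Iglc2 (chr16:19198396-19200351) was at 20.4 and 17.6 normalized counts in PBS and 58.6 and 67.0 with dopamine. Its groups were far apart and the PBS libraries close together, with a log2 fold change of 1.67 (SE 0.27, limma adjusted p = 4.09e-06) that was called in 14 of 14 alternatives. Iglc3 (chr16:19065230-19065681), the near copy of Iglc2 printed above, was at 10.2, 10.7, 23.1 and 24.3. Its groups did not overlap, and its log2 fold change was 1.11 (SE 0.38, limma adjusted p = 0.0312). The Iglc3 call was lost when any 1 library was left out.

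Iglc1 (chr16:19061618-19062071) behaved differently in the 2 PBS libraries. It was at 15.3 normalized counts in PBS A, 61.3 in PBS B, 71.7 in dopamine A and 68.0 in dopamine B. PBS B thus lay much nearer to the dopamine libraries than to PBS A. The log2 fold change of 1.15 (SE 0.31, limma adjusted p = 0.00504) became 0.19 without PBS A, and Iglc1 was not called by edgeR on filtered reads or by DESeq2.

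**Figure D1:**
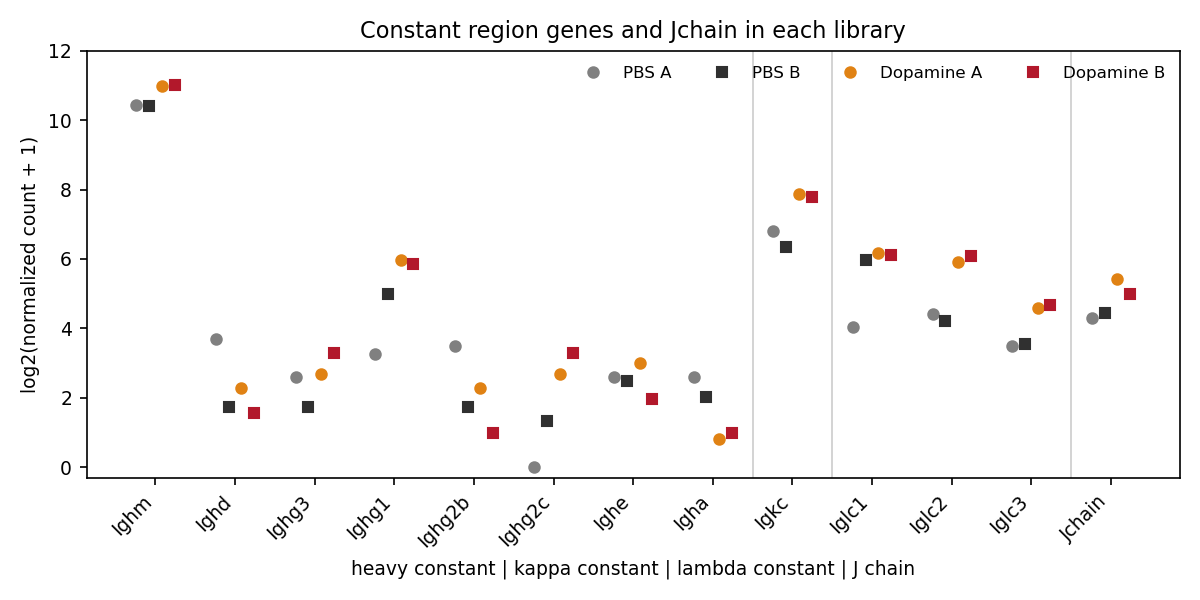
Level of each constant region gene and Jchain in each library, as log2(normalized count + 1), with 1 point for each of the 4 libraries. Ighm stands highest, and for Iglc1 and Ighg1 the PBS A point lies well below the PBS B point.

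The 3 lambda variable segments had the highest mean normalized counts of the light chain variable segments in the table, a level not scaled by length. Iglv1 (chr16:19085017-19085500) was at 10.2 and 42.9 normalized counts in PBS and 70.2 and 53.4 with dopamine. Again PBS A stood low, and PBS B was nearer to dopamine B than to PBS A. The log2 fold change was 1.49 (SE 0.34, limma adjusted p = 7.77e-04) with all libraries and 0.50, not called, without PBS A. Iglv2 (chr16:19260401-19260859), the near copy of Iglv1, was at 6.79, 10.7, 24.7 and 21.4, with groups that did not overlap. It was called higher at a log2 fold change of 1.33 (SE 0.41, limma adjusted p = 0.0146) and lost the call without PBS A, without dopamine A and without dopamine B. Iglv3 (chr16:19241207-19241690) was at 3.40, 9.19, 13.1 and 15.5 and was not called (1.19, limma adjusted p = 0.088), although without PBS B it was. In all, 5 of the 6 lambda members were called higher by limma. DESeq2 gave an adjusted p to 5 of them and called 1, Iglc2. Without PBS A the median log2 fold change of the 6 went from 1.26 to 0.81.

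PBS A and PBS B differed beyond counting error in 5 of the named members. PBS B was 4.01 times PBS A for Iglc1 (95% counting interval 2.01 to 9.09, from 80 and 9 reads), 4.21 times for Iglv1 (1.82 to 12, from 56 and 6 reads) and 3.61 times for Ighg1 (1.42 to 11.7, from 40 and 5 reads). The ratio was below 1 for Ighd, at 0.193 (0.0323 to 0.847, from 3 and 7 reads), and for Ighv10-1, at 0.419 (0.181 to 0.961, from 13 and 14 reads). For Ighm the ratio was 0.975 (0.897 to 1.06) and for Igkc 0.729 (0.530 to 1.01). Among 11611 genes with a mean of at least 20 normalized counts, 16 (0.14%) had PBS B at 3 times PBS A or more, and 3 of the 7 members at that mean were among them. This comparison was chosen after the values were seen. What sets these libraries apart was not tested.

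Kappa variable segments gave 0 of 15 calls in either direction by limma. At an unadjusted p under 0.05 there was 1 higher by limma, 2 higher by edgeR without a filter and 0 by DESeq2. Their median log2 fold change was 0.50, and 11 of the 15 were above 0. The most abundant was Igkv1-135, at 8.49, 2.3, 5.40 and 7.77 normalized counts (limma adjusted p = 0.681), and its groups overlapped. Igkv6-15 was at 6.79, 7.66, 3.86 and 1.94 (0.229), with both dopamine libraries below both PBS libraries. Igkv1-117 was at 3.40, 0.766, 10.8 and 4.85 (0.109), with both dopamine libraries above.

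The 38 heavy variable segments gave 3 higher calls and 1 lower call, with a median log2 fold change of 0.69. Ighv10-1 was the most abundant at 23.8, 9.96, 17.7 and 8.74 normalized counts, with groups that overlapped (limma adjusted p = 0.691). Ighv5-17, at 11.9, 7.66, 8.49 and 4.85, overlapped too (0.544). The segments called higher were all near the limit of detection. Ighv1-78 had 0 and 0 reads in PBS and 8 and 5 with dopamine (limma adjusted p = 0.0248). With the PBS group set to a floor of 3 reads, the ratio of pooled reads was 3.53. Ighv1-52 had 0 and 0 against 6 and 5 reads (0.0427), a ratio of 2.99 against the same floor, and shared 70.3% of its 50-base words with other genes. Both ratios take the dopamine reads as exact and leave out their counting error. Ighv5-6 had 0 and 1 against 7 and 9 reads (0.0184), a ratio of 13 with a 95% counting interval of 2.02 to 546. Of 10 alternatives the calls held in 6 for Ighv1-78, 4 for Ighv1-52 and 6 for Ighv5-6.

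Ighv6-6 (chr12:114434788-114435244) was the single member called lower. It had 11 and 14 reads in PBS and 6 and 1 with dopamine, or 18.7, 10.7, 4.63 and 0.971 normalized counts. The groups did not overlap, and the log2 fold change was -2.19 (SE 0.60, limma adjusted p = 0.00566). Its call was lost without PBS A (-1.82) and without dopamine B (-1.43). The ratio of pooled reads was 0.228 (95% counting interval 0.0833 to 0.542).

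**Figure D2:**
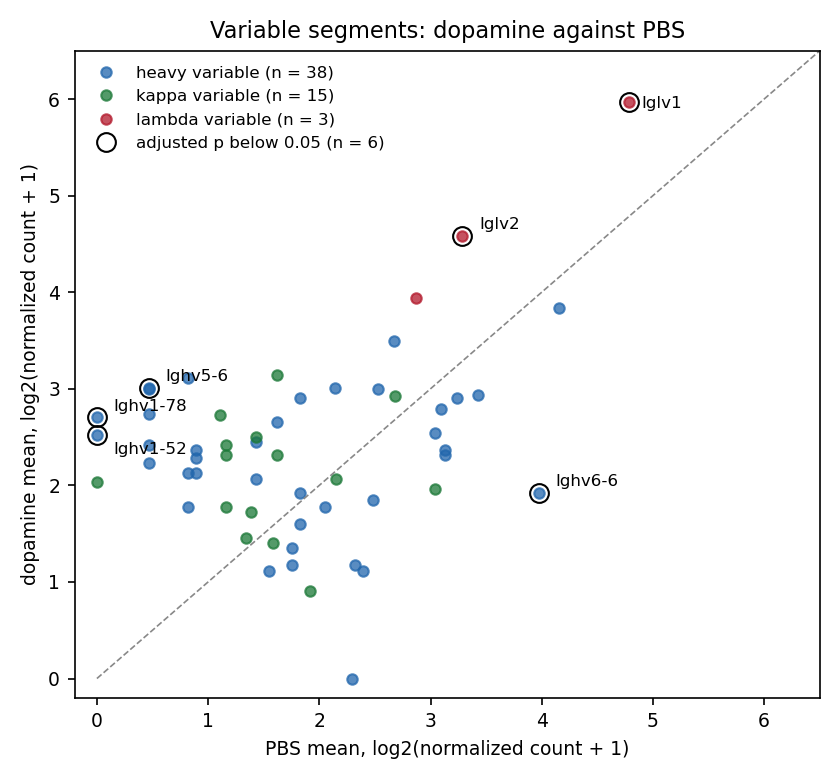
Mean of the dopamine libraries against the mean of the PBS libraries for the 56 variable segments, both as log2(normalized count + 1), coloured by locus, with rings on the 6 segments at an adjusted p below 0.05 and a dashed line of equality. Iglv1, Iglv2 and Iglv3 are above the line, and heavy and kappa segments scatter on both of its sides at low levels.

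Depth limited what single variable segments could show. They had 8 to 208 reads in all 4 libraries together, with a median of 13, and 39 of 56 had under 20. Genes in the table had at least 8 reads in total, and the 38 heavy and 15 kappa segments compare with 115 and 100 annotated ones that are not pseudogenes; the rest were not analysed here. Heavy variable segments with at least 1 read numbered 25 in PBS A, 26 in PBS B, 37 in dopamine A and 34 in dopamine B. Of these 38 segments, 2 had no reads in either PBS library and 1 had none in either dopamine library. Such segments met the minimum of 8 reads through a single group, so the numbers detected cannot be read as a group difference. Depth differed between those libraries as well, although PBS B was deeper than dopamine B.

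Heavy variable families did not share 1 pattern. Family 1, the largest with 15 segments, summed to 23.8, 42.1, 51.7 and 63.1 normalized counts, so both dopamine libraries were higher. Family 6, with 2 segments, summed to 25.5, 18.4, 12.3 and 2.91, so both were lower, and Ighv6-6 is one of its members. Family 2 (5 segments) summed to 20.4, 16.1, 30.9 and 22.3, and family 5 (5 segments) to 22.1, 8.43, 27.0 and 23.3. By position, 14 of the 19 segments nearer to Ighm (166 to 969 kb away) and 11 of the 19 farther ones (1012 to 2577 kb) had a log2 fold change above 0, while the median log2 fold change was 0.50 among the nearer and 0.96 among the farther ones. Of the higher calls 1 was among the nearer and 2 were among the farther ones. The families and positions were not tested.

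Jchain (chr5:88519809-88527891, minus strand) encodes the joining chain that links IgM pentamers and IgA dimers and is made by antibody-secreting cells. It was at 18.7 and 20.7 normalized counts in PBS and 41.7 and 31.1 with dopamine. Both dopamine libraries were above both PBS libraries, with a log2 fold change of 0.84 (SE 0.31, limma adjusted p = 0.0424). The call held in 5 of 14 alternatives and was lost when any 1 library was left out.

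Sums over each class pooled the reads of single segments, and on the normalized scale both dopamine libraries were above both PBS libraries in every class. Heavy constant genes summed to 1430 and 1397 normalized counts in PBS and to 2130 and 2141 with dopamine, a ratio of means of 1.51. Without Ighm they summed to 45.9, 46.7, 87.9 and 81.6, a ratio of 1.83. The ratio was 2.37 for Igkc, the kappa constant class. Lambda constant genes summed to 45.9, 89.6, 153.5 and 159, a ratio of 2.31. Heavy variable segments summed to 153, 127, 184 and 158, a ratio of 1.22, the smallest of these classes. Scaled to the library total instead, they were 15.7 and 12.5 RPM (reads scaled to library size) in PBS and 16.8 and 14.2 RPM with dopamine, so the groups overlapped, and the log2 ratio of 0.29 became 0.13 on that scale and 0.09 after rescaling on abundant genes. Kappa variable segments summed to 35.7, 33.7, 61.7 and 48.5, a ratio of 1.59. Lambda variable segments summed to 20.4, 62.8, 108 and 90.3, a ratio of 2.38. Without PBS A the log2 ratio of the lambda variable sum went from 1.25 to 0.66 and that of the lambda constant sum from 1.21 to 0.80. Without PBS B they were 2.28 and 1.77. Differences between these classes were not tested.

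**Figure D3:**
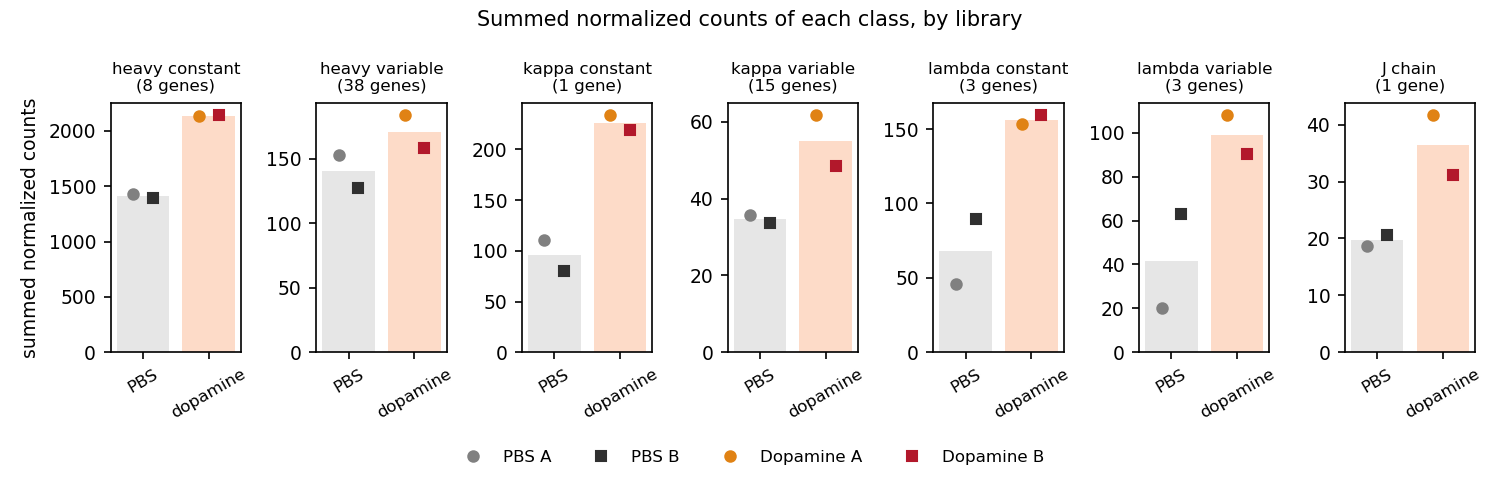
Summed normalized counts of each class in each library, with PBS and dopamine side by side, bars for the mean of 2 libraries, points for the libraries and each panel on its own axis from 0. On this scale dopamine points lie above PBS points in each class, by the least for heavy variable segments, and the 2 PBS points stand apart in the lambda panels.

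Within the light chains, lambda genes held 29.3% of constant region reads in PBS A (95% Clopper-Pearson interval 20.3 to 39.8), 52.7% in PBS B (45.9 to 59.4), 39.6% in dopamine A (35.3 to 44.1) and 42.1% in dopamine B (37.1 to 47.1). The dopamine libraries lay between the PBS libraries. Of variable segment reads, lambda held 36.4% (20.4 to 54.9), 65.1% (56.1 to 73.4), 63.6% (56.9 to 70.0) and 65.0% (56.6 to 72.8), so PBS A stood below the other 3. The variable share covers all 3 annotated lambda segments but 15 kappa segments, against 100 annotated ones that are not pseudogenes. Reads of the absent kappa segments are not in it, so it may overstate lambda. Ighg1 made up 18.5% of the heavy constant reads other than Ighm in PBS A (5 of 27), against 65.6% in PBS B and 70.2% in each dopamine library.

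**Figure D4:**
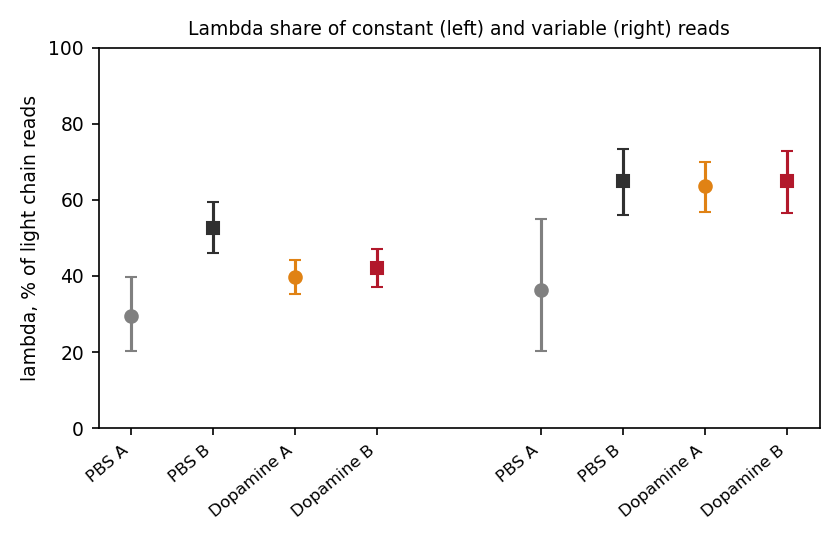
Lambda genes as a percentage of light chain reads in each library, for constant genes (left) and variable segments (right), with 95% Clopper-Pearson intervals. PBS A is the lowest library on both sides, and PBS B is the highest on the left at 52.7%.

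Variable and constant levels were compared per kilobase of exon within each locus. At the heavy locus the variable sum was 0.544 and 0.464 of the constant sum in PBS and 0.444 and 0.380 with dopamine. At the kappa locus the ratios were 0.452 and 0.606 in PBS and 0.371 and 0.310 with dopamine. In both, each dopamine library was below each PBS library. The lambda ratios were 0.598, 0.870, 0.923 and 0.753 and overlapped between groups. For T cell receptor beta the ratios were 0.517, 0.538, 0.560 and 0.531. The heavy and kappa variable sums held only the 38 and 15 segments in the table and leave out any reads of the other annotated segments. These ratios were not tested.

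Some B cell markers were higher with dopamine as well. Of 18 markers 7 were higher and 0 lower by limma, and 8 and 0 by edgeR without a filter. DESeq2 called 4 higher and 0 lower of the 13 it gave an adjusted p. Over all genes limma called 14.3% higher and 7.00% lower, and DESeq2 19.6% and 5.53%. At an unadjusted p under 0.05, the counts were 10 and 0 by limma and by edgeR and 7 and 0 by DESeq2. Their sum was 494 and 476 normalized counts in PBS and 938 and 903 with dopamine, and 0 markers were at 0 in any library. Of that sum, Pou2af1 alone held 182, 179, 333 and 317. Without PBS A 6 were higher. Ms4a1 (CD20) was at 32.3, 22.2, 111 and 99.0, a log2 fold change of 1.93 (limma adjusted p = 6.31e-09). Cd79b, which signals for the B cell receptor, was at 51.0, 46.0, 114 and 125 (1.29, 8.76e-07). Cd79a was at 15.3, 9.96, 25.5 and 24.3 and was not called (0.95, 0.0594). In contrast Pax5, named after its values were seen, was at 30.6, 23.8, 24.7 and 27.2 (-0.06, 0.922). Ebf1, Bank1, Cr2 and Fcrla, also named after their values were seen, had log2 fold changes of -0.15, -0.28, -0.52 and -0.79. None of them was called.

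Set against Cd79b, Igkc per kilobase was 5.83 and 4.71 times the marker in PBS and 5.51 and 4.71 times with dopamine, so the groups overlapped. Ighm per kilobase was 20.6 and 22.3 times Cd79b in PBS and 13.6 and 12.5 times with dopamine, lower in both dopamine libraries. In bulk libraries a change in the number of cells of a type and a change in RNA per cell cannot be told apart. The part that B cells in the samples had in the immunoglobulin values was not tested.

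**Figure D5:**
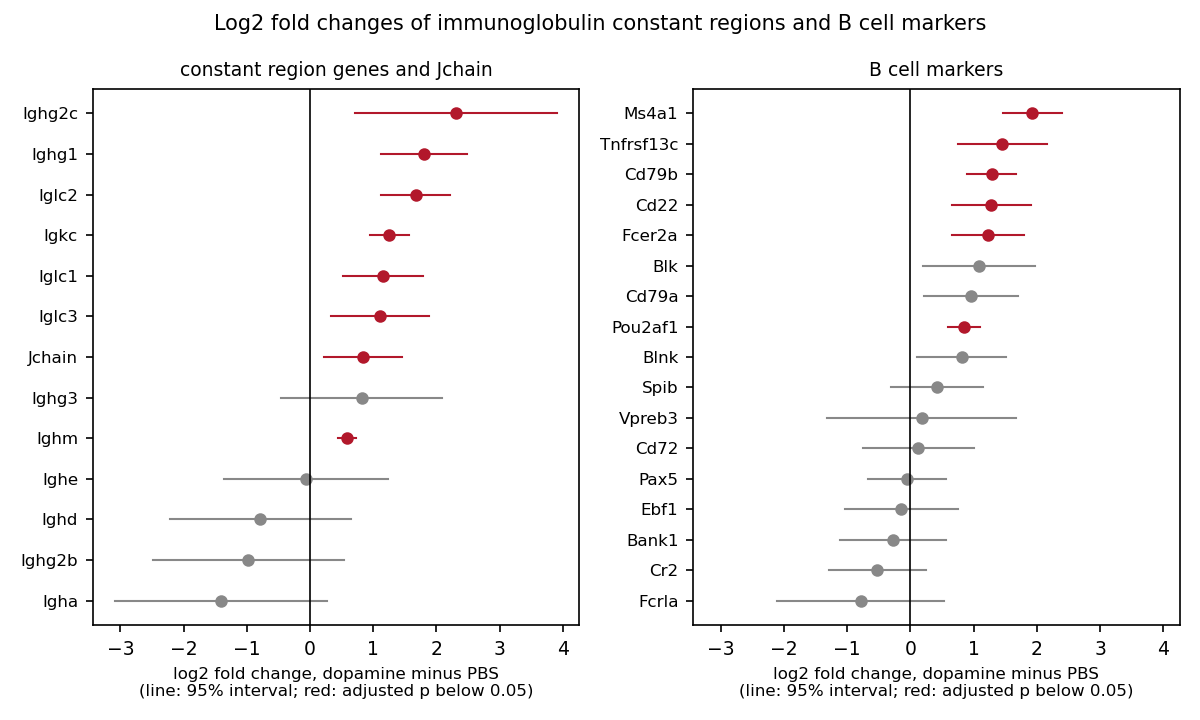
Log2 fold change, dopamine minus PBS, of the constant region genes with Jchain and of 17 of the B cell markers, with 95% intervals and red for an adjusted p below 0.05. Igkc, Cd79b and Ms4a1 lie between 1.26 and 1.93. Pax5 lies at -0.06, and Ebf1, Bank1, Cr2 and Fcrla lie lower still.

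Plasma cell markers gave 6 higher and 0 lower of 11 by limma (8 and 0 at an unadjusted p under 0.05), and 4 higher after rescaling on abundant genes. By DESeq2 6 were higher and 0 lower of the 9 given an adjusted p (6 and 0 at an unadjusted p under 0.05). Over all genes limma called 14.3% higher and 7.00% lower, and DESeq2 19.6% and 5.53%. Mzb1, a chaperone of antibody assembly, was at 25.5, 19.9, 71.7 and 75.7 normalized counts (log2 fold change 1.67, limma adjusted p = 1.19e-06). Prdm1 was at 23.8, 48.3, 78.7 and 80.6 (1.21, limma adjusted p = 1.99e-04) and is in the transcription factor list below as well. The other markers called higher were abundant in every library. Irf4, also in the transcription factor list below, was at 7520, 7721, 13931 and 15265 (0.94, 7.08e-18). Slamf7 was at 870, 778, 1219 and 1273 (0.60, 3.25e-07). The part that plasma cells had in these values was not tested. Sdc1, the plasma cell surface marker CD138, was at 25.5, 11.5, 17.7 and 30.1 and was not called (0.475). Of 16 transcription factors that act on immunoglobulin genes, 6 were higher and 1 lower, and 5 and 3 after rescaling on abundant genes. The lower call was lost when any 1 library was left out. Pou2af1, a co-activator at immunoglobulin promoters and also one of the B cell markers, was at 182, 179, 333 and 317 (0.85, 6.59e-07). Irf8 went from a mean of 779.5 to 1730 (1.15, 3.07e-15), and Tcf3 from 463 to 680 (0.55, 2.74e-05).

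For the lists that follow, the shares over all genes were 14.3% higher and 7.00% lower by limma and 19.6% and 5.53% by DESeq2. DESeq2 gave an adjusted p to 7 of the Fc receptors and transporters, 9 of the basophil and mast cell markers and 6 of the dendritic cell and monocyte markers. Genes of rearrangement and class switching gave 3 higher and 2 lower of 13 by limma, but 0 and 3 after rescaling on abundant genes. By DESeq2 they gave 3 and 0 of the 7 with an adjusted p. With 1 library left out the counts were 0 and 0 without PBS A, 2 and 1 without PBS B, 4 and 0 without dopamine A, and 1 and 1 without dopamine B. These counts thus depended on the scaling and on single libraries. Among 16 Fc receptors and antibody transporters 1 was higher and 5 lower by limma, 0 and 3 without dopamine A and by DESeq2, and 1 and 3 without PBS A. Fcer2a (CD23), a low-affinity IgE receptor of B cells and also one of the B cell markers, had a log2 fold change of 1.23 (limma adjusted p = 9.30e-04), and Fcgr3 one of -1.22 (1.57e-04). Of the lower calls, Fcer1a and Ms4a2 also belong to the basophil and mast cell markers given next. Basophil and mast cell markers gave 0 higher and 9 lower of 10 by limma and 0 and 6 by DESeq2 (at an unadjusted p under 0.05, 0 and 9 by limma and 0 and 7 by DESeq2), and their sum went from 2648 and 2259 to 899.5 and 827. Dendritic cell and monocyte markers gave 0 higher and 3 lower of 9 by limma (1 and 4 at an unadjusted p under 0.05), 0 and 1 by DESeq2 and without dopamine B, and 1 and 1 without PBS B. T helper cell markers gave 6 higher and 1 lower of 10, and 2 higher and 1 lower after rescaling on abundant genes or without PBS A. T cell receptor beta variable segments gave 8 higher and 0 lower of 23, and alpha variable segments 0 higher and 2 lower of 66.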

How the data were processed

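Per the labels' protocols, a TruSeq Stranded mRNA kit was used for the RNA-seq libraries. The submitters' processing notes name mm10 as build and FastQC 0.11.2, TopHat2 2.0.13, HTSeq 0.6, R 3.6.2 and DESeq2 as tools; the counting's annotation and strand setting are not given there. The deposited signal of each library is the authors' normalized count, a read count divided by a size factor, per the file headers and the values. All values (100%) were whole multiples of 1 read within a tolerance of 0.01. The authors also deposited log2 fold changes, a Wald score and p-values of their DESeq2 comparison. Of the 10 members given an adjusted p in the authors' deposited table, 4 (Ighm, Igkc, Iglc2 and Ighg1) passed 0.05. There were 0 columns of other samples.

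Values were tested as log2(value + 1) without a filter, with limma 3.58.1 (trend, R 4.3.3), two-sided, over 26207 genes. On that scale the added pseudocount pulls fold changes of genes with few reads towards 0, and each library weighs alike, so uneven replicates can also move them away from the ratio of means. The variance of each gene is moved by limma towards that of genes of similar level, with a prior of 42.4 degrees of freedom. With 2 libraries in each group, SE and p thus rest mostly on other genes, not on that gene's own spread. Recovered reads were tested with edgeR 4.0.16 and DESeq2 1.42.0 as alternatives. Other alternatives changed the pseudocount, filter or scaling, or left out each library. Scripts were tested on simulated data. Locations and exon lengths came from GENCODE M21.

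Members, lists and tests were chosen with earlier results of these data known. Named members were every constant gene and Jchain, the 3 most abundant variable segments of each locus, and up to 5 further called members in each direction with the largest fold change. From other lists, up to 4 called genes by p with at least 20 normalized counts could be named, with Ms4a1, Cd79a, Cd79b, Sdc1, Cd4 and Cd3e among those named in any case. Some items are not reported here.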

Additional observations from a re-analysis of the deposited data

How the results depend on the processing

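Ighm, Igkc, Iglc2 and Ighg1 kept their call in 14 of 14 alternatives. Against 13 members called higher, edgeR with filterByExpr called 7 with either scaling, DESeq2 called 4, and leaving out 1 library gave 6 to 12. Against 1 member called lower, edgeR without a filter called 2, DESeq2 called 0 (2 at an unadjusted p under 0.05), and leaving out 1 library gave 0 to 1. Only 14 members passed filterByExpr. Over all genes, 5577 were called by limma, 3261 by DESeq2, and 2914 to 4299 with 1 library left out. The log2 ratio of summed heavy constant genes was 0.60, and was 0.44 when scaled to the library total, 0.40 after rescaling on abundant genes (mean of 100 normalized counts or more), and 0.87 without Ighm. That rescaling moved the median of those abundant genes from 0.20 to near 0 on the log2 scale (0.003).

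Of 300 alternative values of named members, 48 lost a call and 6 changed sign, all 6 in genes without a call. Ighe was 0.075 by edgeR without a filter. With 1 library left out, log2 fold changes ran from -1.77 to 0.20 for Ighd, from -0.58 to 0.44 for Ighe, from -0.88 to 0.30 for Ighv10-1 and from -0.34 to 1.18 for Igkv1-135. The cause was not tested.

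Whether same-numbered columns form pairs could not be decided, since there were only 2 such pairs. Deviations of same-numbered columns from their group means correlated at 0.125 across 11611 genes. With the replicate block, 15 members were called higher and 1 lower, and 6999 of all genes were called.

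Depth limits the variable segments most, since 39 of 56 had under 20 reads over the 4 libraries.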
